A study of Mus musculus with 20 samples.

Results

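The 37 mitochondrially encoded genes of the mouse were taken as all genes whose symbol begins with mt-, 37 of the 55471 gene IDs counted in each library. They comprise 13 protein genes, 2 rRNA genes and 22 tRNA genes. They were read in brown adipose tissue (BAT), the fat that burns fuel for heat, in 20 stranded mRNA libraries, 5 in each of 4 groups. In KO_cold the mice lacked CEBPB (C/EBP beta, a transcription factor of fat cell formation) in adipose tissue alone and had been under cold stress for 4 h, and KO_RT is the same adipose-specific knockout (KO) at room temperature (RT). WT_cold and WT_RT are wild type (WT) tissue under those same conditions. The transgene that drives the knockout, the strain, the age and the sex are not given in the labels. Nothing in the labels ties each library to an animal of its own, and a p here sets a difference against the spread among libraries, part of which can be technical.

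The mitochondrial genome is a small circle copied by its own polymerase into long RNAs from both strands, which are cut apart mostly at the tRNAs that lie between the larger genes. RNA of the plus strand carries both ribosomal RNAs and all of the messenger RNAs except that of Nd6, while RNA of the minus strand carries Nd6, a few tRNAs and long stretches that encode nothing. The proteins are core subunits of the respiratory chain, which builds a proton gradient, and of ATP synthase, which uses it. In brown fat UCP1 turns that gradient into heat. The rRNAs belong to the ribosome inside the organelle. The library kit captures poly(A) RNA, so every count, be it of an mRNA, rRNA or tRNA gene, is of RNA that came through that capture. The RNA was sheared to fragments longer than any of these tRNA genes, which measure 59 to 75 bases.

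The genes lie almost end to end on chromosome M of GRCm38. Of the 36 pairs of neighbours, 9 overlap and 35 either overlap or lie at most 5 bases apart, and 28 genes are on the plus strand and 9 on the minus strand (8 tRNA genes and mt-Nd6). A read was counted for 1 gene per strand setting, and a read that touched 2 genes of that strand was set aside as ambiguous. Both strand settings were therefore read: sense counts are of RNA in the direction of the gene, and antisense counts are of RNA of the opposite strand over the same gene. The sequences that matter most for reading the counts are the ends of mt-Nd5 and mt-Nd6, which face each other, and 3 minus-strand tRNA genes over which plus-strand RNA runs. The first lines give, from GENCODE M21, the last 40 bases of mt-Nd5 (chrM:13526-13565, plus strand) and of mt-Nd6 (chrM:13552-13591, minus strand), with the 14 bases that both genes share (13552 to 13565) in capitals. The others give the whole genes of mt-Ta (chrM:5018-5086), mt-Ts1 (chrM:6870-6938) and mt-Tp (chrM:15356-15422), the tRNAs for alanine, serine and proline, each on the minus strand, with nothing marked.
mt-Nd5: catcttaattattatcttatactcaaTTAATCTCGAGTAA
mt-Nd6: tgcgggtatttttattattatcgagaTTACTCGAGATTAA
mt-Ta: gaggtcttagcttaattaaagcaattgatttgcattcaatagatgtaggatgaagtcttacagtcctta
mt-Ts1: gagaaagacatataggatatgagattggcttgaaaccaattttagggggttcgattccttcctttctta
mt-Tp: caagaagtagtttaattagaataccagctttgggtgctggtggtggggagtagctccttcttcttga

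Between 27.07 and 55.18 M sense counts per library fell on genes, and these were 94.5% to 95.7% of the sense and antisense counts together. Values are CPM, the count scaled to library size, and changes are log2 fold changes ± SE. Cebpb, the targeted gene, averaged 1.92 ± 0.277 CPM in KO_cold, 0.564 ± 0.252 in KO_RT, 143 ± 22.4 in WT_cold and 104 ± 19.9 in WT_RT (SD, n = 5 each). All 12 brown adipocyte markers were detected in every group. Their summed CPM was 24511 to 27259 in KO_cold, 15608 to 19028 in KO_RT, 25475 to 29669 in WT_cold and 15903 to 21260 in WT_RT. In the cold 4 of the 12 rose and 6 fell in KO, and 4 rose and 5 fell in WT. Of all tested genes, 27.5% rose and 31.7% fell in KO, and 26.2% and 30.2% in WT. The summed CPM of 18 skeletal muscle markers ran from 44.6 to 50.01 in KO_cold, from 84.5 to 714 in KO_RT, from 50.04 to 91.6 in WT_cold and from 58.4 to 1608 in WT_RT, and 17 of the 18 fell in the cold in both genotypes. In KO_cold 3 of the 18 were at 0 in all libraries, in KO_RT 0, in WT_cold 1 and in WT_RT 0. The summed CPM of 7 lymphocyte markers was 0.855 to 1.54 in KO_cold, 2.12 to 3.21 in KO_RT, 0.853 to 1.91 in WT_cold and 1.98 to 3.18 in WT_RT, and that of 6 endothelial markers 855 to 989.7 in KO_cold, 549 to 738 in KO_RT, 757 to 951 in WT_cold and 666 to 848 in WT_RT. In each group 0 of these 7 and 0 of these 6 were at 0 in all libraries, and their part in the results was not tested. The summed CPM of 8 macrophage and of 5 erythrocyte markers overlapped between cold and RT groups in both genotypes. That of the erythrocyte markers was 1154 in WT_cold replicate 5, against 269 to 350 in the other WT_cold libraries and 213 to 474 in the other groups. The macrophage sum of WT_cold replicate 5 (143) was the highest of WT_cold too. What part these cells had in the results was not tested. On the first principal component of log2 CPM over all tested genes (53.9% of the variance), which separates cold from RT libraries, WT_cold replicate 5 (26.6) and WT_RT replicate 4 (-23.4) lay nearer the middle than the rest (37.6 to 51.8 for cold and -56.3 to -39.5 for RT). The values of cold calls in WT without both of these libraries are given with the results. In bulk tissue, fewer cells of a type and less RNA per cell cannot be told apart.

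The 37 genes took 33.0% ± 1.95 of all sense gene counts in KO_cold, 31.6% ± 1.61 in KO_RT, 30.8% ± 1.43 in WT_cold and 31.7% ± 2.01 in WT_RT (SD, n = 5 each). The 4 groups overlap in this share. Protein genes held 78.4% of the sense counts of the 37 genes over all libraries, rRNA genes 21.6% and tRNA genes 0.0290%. The counts were very unequal between genes: 9 genes with at least 10000 counts in every library (mt-Rnr1, mt-Rnr2, mt-Nd1, mt-Nd2, mt-Co1, mt-Nd4, mt-Nd5, mt-Nd6 and mt-Cytb) held 99.96% of them.

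Per length, mt-Co1, the catalytic subunit of complex IV, stood highest, with 53365 ± 5201 CPM per kb over the 20 libraries (SD). It was followed by mt-Cytb of complex III with 44566 ± 3678, the large-subunit rRNA mt-Rnr2 with 32566 ± 10987, and the complex I subunits mt-Nd2 with 30513 ± 2359 and mt-Nd1 with 29838 ± 2444 CPM per kb. Then came mt-Nd5 with 18592 ± 1986, the small-subunit rRNA mt-Rnr1 with 18342 ± 6142, mt-Nd4 with 14145 ± 1098 and mt-Nd6 with 4500.4 ± 1713 CPM per kb. The SD intervals of neighbours in this order overlapped, except between mt-Nd1 and mt-Nd5 and between mt-Nd4 and mt-Nd6. The place of the rRNA genes in the order differed by temperature. mt-Rnr2 averaged 42158 ± 6594 CPM per kb in KO_cold, 22506 ± 3887 in KO_RT, 41822 ± 7395 in WT_cold and 23778 ± 3870.2 in WT_RT (SD, n = 5 each), and its mean lay above that of mt-Nd2 in both cold groups and below it in both RT groups. mt-Rnr1 averaged 24140.3 ± 3884 CPM per kb in KO_cold, 12790.0 ± 1059 in KO_RT, 23169.6 ± 4588 in WT_cold and 13268 ± 251 in WT_RT, above mt-Nd5 in both cold groups and below mt-Nd4 in both RT groups. Of the tRNA genes, mt-Tt (threonine) was highest, with 719.9 CPM per kb, and mt-Tw (tryptophan) next, with 238.

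**Figure D1:**
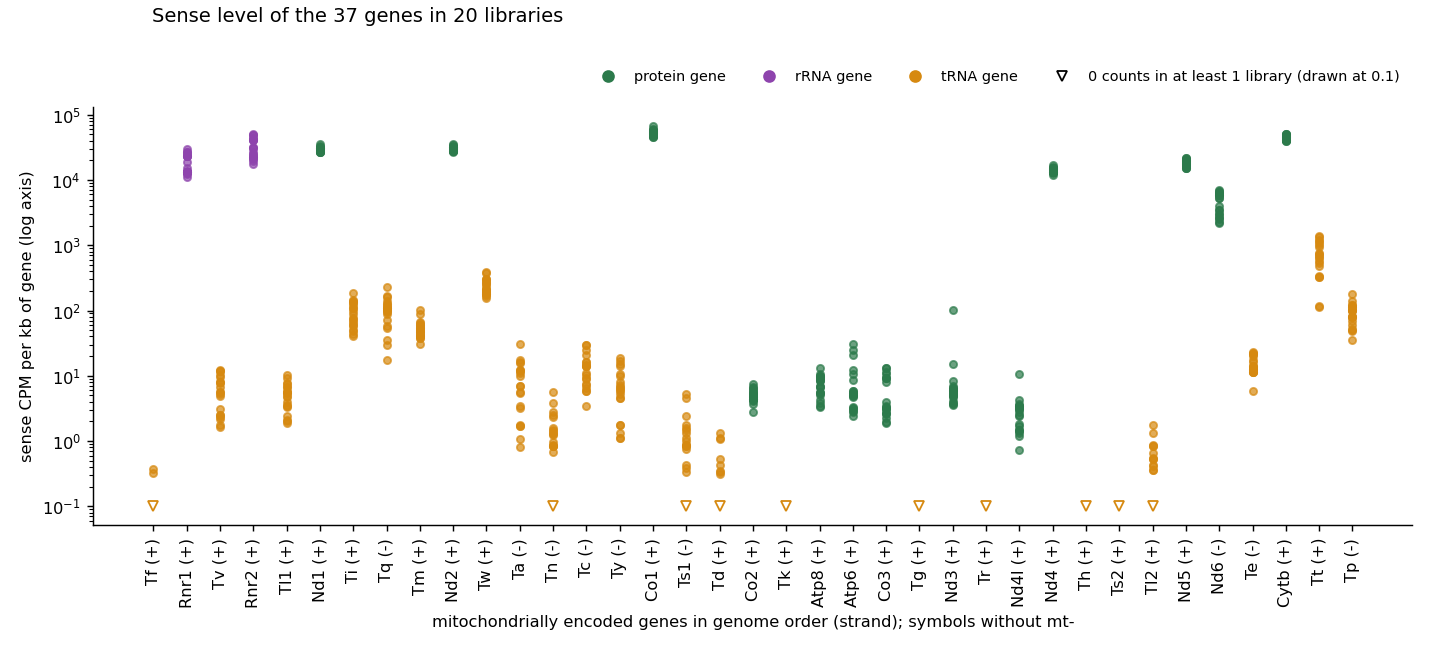
Sense CPM per kb of gene (log axis) of the 37 genes in genome order, 1 point per library, coloured by kind of gene; an open triangle marks a gene with 0 counts in at least 1 library. A total of 9 genes lie above 1000 CPM per kb in all 20 libraries, while protein genes from mt-Co2 to mt-Nd4l lie far below them.

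The other 6 protein genes (mt-Co2, mt-Atp8, mt-Atp6, mt-Co3, mt-Nd3 and mt-Nd4l) averaged only 2.86 to 10.7 CPM per kb. They lie inside a stretch of 4653 bases (chrM:6390-11042) of which the nuclear genome holds a nearly identical annotated copy on chromosome 1 (24611535 to 24616197, minus strand). Altogether 11 of the 37 genes fall wholly inside it, and 7 protein genes have an annotated copy there of at least 99% identity. Reads that fit 2 places were left out of the gene counts, so the counts of these genes are of the reads that could be told from the copy. Of all 75-base windows, 0.492% were found nowhere else among annotated transcripts for mt-Co2, 0.494% for mt-Atp6, 0.141% for mt-Co3, 2.19% for mt-Nd3 and 1.35% for mt-Nd4l, against 38.5% for mt-Nd4 and 60.2% for mt-Co1. For mt-Atp8 no copy is annotated, although the gene lies inside the stretch. The read length is not given in the sources used here. With windows of 50 to 150 bases, mt-Nd4 would stand at 34629.8 to 37447 and mt-Co1 at 69885 to 109212 CPM per kb of unique sequence.

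In mt-Nd3, a subunit of complex I, 1 of the 345 bases aligned differs between the gene and the nuclear copy Gm28438. It is T3C, the mitochondrial base first and counted from 1 at the start of the gene (position 9461 of chromosome M), and is in capitals below (chrM:9459-9481, plus strand, and chr1:24613097-24613119, minus strand).
mt-Nd3: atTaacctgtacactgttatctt
Gm28438: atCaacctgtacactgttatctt
The sense level of mt-Nd3 was 1.45 to 2.25 CPM in KO_cold, 1.90 to 5.28 in KO_RT and 1.23 to 1.79 in WT_cold. In WT_RT it was 1.68, 2.92, 2.03, 35.4 and 2.40 CPM, so that replicate 4 stood far above the rest, with 1374 counts. The Gm28438 copy had 62 to 230 counts per library.

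Of the 37 genes, 27 passed the expression filter on sense counts and were tested. Of the rest, mt-Tk, mt-Tg, mt-Tr, mt-Th and mt-Ts2 had 0 sense counts in all 20 libraries, and mt-Tf, mt-Tn, mt-Ts1, mt-Td and mt-Tl2 were low throughout. For the 5 genes at 0, 3 counts over all libraries, or 0.00411 CPM, is the level that counting alone leaves possible. That level is of counted reads and sets no upper limit on the RNA itself. mt-Tk, mt-Tg and mt-Tr lie wholly inside the stretch copied in the nucleus, where reads that fit several places were left out. Of the low genes, mt-Ts1 and mt-Td lie inside that stretch too. All 5 genes at 0 overlap plus-strand neighbours or lie within 5 bases of them. A read that also touched such a neighbour was set aside as ambiguous. How many reads were lost in these ways was not tested. All 13 protein genes, both rRNA genes and 12 of the 22 tRNA genes were tested.

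In the cold, both ribosomal RNAs rose and the sense level of mt-Nd6 fell, in both genotypes, while the abundant plus-strand mRNAs changed little. In KO_cold against KO_RT, 3 of the 27 tested genes rose and 5 fell, which is 29.6% called, against 59.2% of all 15233 tested genes (27.5% higher and 31.7% lower). The median log2 change was 0.03 over the 27 genes and -0.05 over all genes. In WT_cold against WT_RT, 4 rose and 5 fell, which is 33.3%, against 56.4% of all genes (26.2% higher and 30.2% lower), with a median of -0.17 over the 27 genes and -0.05 over all genes. Both shares of called genes are lower than the shares over all genes. The comparisons of the 2 genotypes share no library, and 5 genes were called in the same direction in both (mt-Rnr1, mt-Rnr2, mt-Tv, mt-Ta and mt-Nd6). That is 62.5% of the 8 called in KO and 55.6% of the 9 called in WT. The same overlap was not taken over all genes, of which 59.2% and 56.4% were called, so these shares have no comparison.

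The small-subunit rRNA mt-Rnr1 (ENSMUSG00000064337.1, chrM:70-1024, plus strand) had 28102, 22291, 24403, 22611 and 17862 CPM in KO_cold, against 13046, 10552, 11989, 12860.1 and 12625 CPM in KO_RT. It had 22319.8, 22501, 25838, 25169 and 14806 CPM in WT_cold, against 12806, 12848, 12659, 12781 and 12261 CPM in WT_RT. All cold libraries lay above all RT libraries of their genotype, with WT_cold replicate 5 the lowest of the cold libraries. The change was 0.92 ± 0.12 in KO (edgeR quasi-likelihood test, Benjamini-Hochberg adjusted p = 1.25e-06) and 0.80 ± 0.12 in WT (adjusted p = 7.57e-06), or 1.89-fold and 1.75-fold.

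The large-subunit rRNA mt-Rnr2 (chrM:1094-2675, plus strand) had 76368, 65468, 76301, 64182 and 51152 CPM in KO_cold, against 37889, 27463, 31146, 42591 and 38933 in KO_RT. It had 65196, 67365, 80920.5, 69032 and 48299.5 CPM in WT_cold, against 35789, 33704, 35200.0, 48485 and 34907 in WT_RT. The KO groups did not overlap, whereas WT_cold replicate 5 lay just below WT_RT replicate 4. The change was 0.91 ± 0.14 in KO (adjusted p = 1.37e-05) and 0.81 ± 0.14 in WT (adjusted p = 5.19e-05). Without WT_RT replicate 4 and WT_cold replicate 5, the WT change was 1.04 for mt-Rnr2 and 0.95 for mt-Rnr1. Skeletal muscle markers moved with temperature too, and once the fit held their mean the changes of mt-Rnr1 were 0.98 in KO and 0.85 in WT, and those of mt-Rnr2 0.79 and 0.75, all still called.

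The rRNA genes took 25.6% ± 3.29 of the sense counts of the 37 genes in KO_cold, 15.6% ± 1.45 in KO_RT, 27.5% ± 3.76 in WT_cold and 16.8% ± 1.26 in WT_RT (SD, n = 5 each). Every cold library lay above every RT library in this share, the lowest cold value being 21.4% and the highest RT value 18.7%, that of WT_RT replicate 4. The rRNAs moved together: mt-Rnr2 over mt-Rnr1 averaged 2.90 ± 0.151 in KO_cold, 2.90 ± 0.309 in KO_RT, 3.01 ± 0.199 in WT_cold and 2.97 ± 0.469 in WT_RT (SD, n = 5 each). The antisense counts over the rRNA genes were 0.0877% to 0.360% of each gene's stranded counts. For comparison, the median share of abundant nuclear genes was 0.188% to 0.492% per library (173 protein genes with at least 10000 sense counts in every library). This antisense RNA changed by 0.76 ± 0.34, adjusted p = 0.107 in KO and 0.53 ± 0.34, adjusted p = 0.276 in WT for mt-Rnr1, and by 0.78 ± 0.31, adjusted p = 0.0656 and 0.67 ± 0.31, adjusted p = 0.120 for mt-Rnr2.

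**Figure D2:**
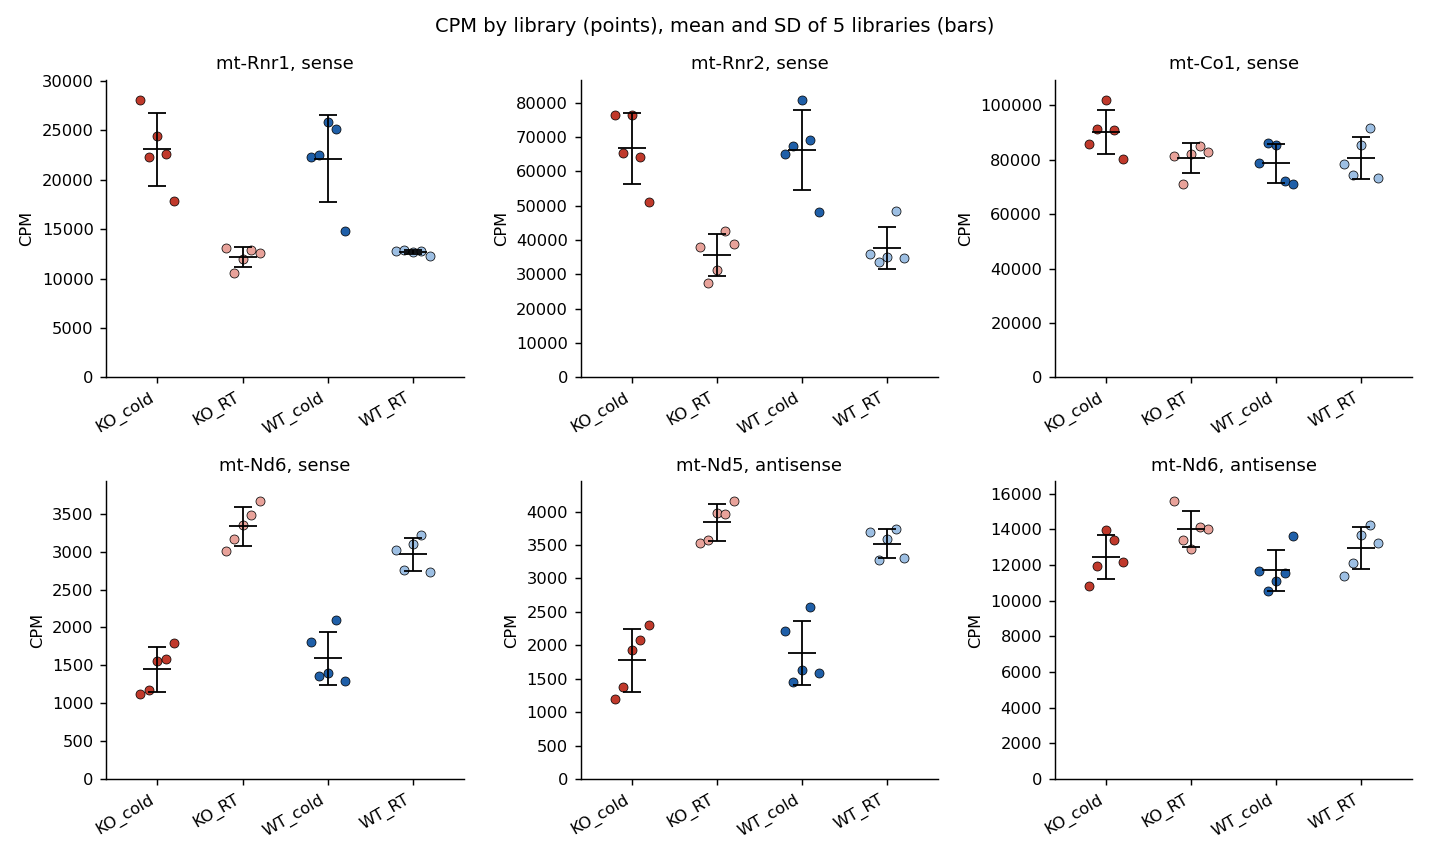
CPM of 6 readings by library (points), with the mean and SD of the 5 libraries of each group (bars); axes start at 0. The top row shows both rRNAs higher in cold libraries and mt-Co1 overlapping between groups, and the bottom row shows minus-strand RNA (mt-Nd6 sense, mt-Nd5 antisense) lower in all cold libraries than in all RT libraries, while plus-strand RNA over mt-Nd6 (antisense) overlaps.

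The other abundant plus-strand genes are the mRNAs of mt-Nd1, mt-Nd2, mt-Nd4 and mt-Nd5 (complex I), mt-Cytb (complex III) and mt-Co1 (complex IV). Their log2 changes ran from -0.11 to 0.16 in KO, with 0 of 6 called (smallest adjusted p = 0.104), and from -0.19 to -0.04 in WT, with 1 of 6 called. The called one was mt-Cytb, with 46823, 44624, 47037, 46354 and 45861 CPM in WT_cold, against 48912, 52086, 57351, 51516 and 49931 in WT_RT. These groups did not overlap, and the change was small (-0.17 ± 0.07, adjusted p = 0.0323); the call was made in 13 of 31 alternative analyses. It ended without WT_RT replicate 4 and WT_cold replicate 5 (-0.14, adjusted p = 0.104) and with the muscle term (-0.18, adjusted p = 0.0653). Against library size without TMM, which shifts every gene by -0.13 in both genotypes, mt-Nd5 and mt-Cytb fell in KO, and mt-Nd1, mt-Nd2, mt-Nd4, mt-Nd5 and mt-Cytb fell in WT, by 0.20 for mt-Nd1 to 0.32 for mt-Nd5. mt-Co1 had 85595, 91266, 102093, 91079 and 80231 CPM in KO_cold and 81412, 71043, 81981, 85092 and 82945 in KO_RT, with overlap (0.16 ± 0.08, adjusted p = 0.104). In WT_cold it had 78815, 85970.4, 85405, 72100.2 and 70949.9 CPM and in WT_RT 78281, 74312, 85293, 91771 and 73343, also with overlap (-0.04 ± 0.08, adjusted p = 0.743).

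mt-Nd6 (ENSMUSG00000064368.1, chrM:13552-14070), a membrane subunit of complex I, is the single protein gene on the minus strand. Its sense level was 1118, 1169, 1553, 1589 and 1801 CPM in KO_cold, against 3015, 3164, 3348, 3490.4 and 3665 CPM in KO_RT. It was 1808, 1366, 1398, 2102 and 1287 CPM in WT_cold, against 3022, 2759, 3107, 3222 and 2729.7 CPM in WT_RT. Neither pair of groups overlapped. The change was -1.21 ± 0.13 in KO (adjusted p = 1.52e-07) and -0.90 ± 0.13 in WT (adjusted p = 7.41e-06), in WT -0.77 without WT_RT replicate 4 and WT_cold replicate 5. In a fit that holds the muscle markers it was -1.27 in KO and -0.94 in WT.

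The strand setting decides what is seen at mt-Nd6. Antisense counts were 79.0% to 91.4% of its stranded counts, and these are of plus-strand RNA over the gene: 12462 ± 1229 CPM in KO_cold, 13999.8 ± 1000.01 in KO_RT, 11692 ± 1157 in WT_cold and 12936 ± 1172 in WT_RT (SD, n = 5 each). These groups overlapped, with changes of -0.17 ± 0.08, adjusted p = 0.0977 in KO and of -0.15 ± 0.08, adjusted p = 0.166 in WT. When both strands were counted together, the change of mt-Nd6 was -0.31 in KO (adjusted p = 0.00304) and -0.17 in WT (adjusted p = 0.0897).

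Antisense counts were tested in a fit of their own over the 6312 genes that passed the filter, 22 of the 37 among them. In KO_cold against KO_RT, 0 rose and 7 fell, 31.8% against 31.7% of all genes (16.3% higher and 15.4% lower), with medians of -0.31 over the 22 genes and 0.02 over all. In WT_cold against WT_RT, 1 rose and 3 fell, 18.2% against 28.3% of all genes (14.1% higher and 14.2% lower), with medians of -0.12 and 0.00. In KO the share of lower calls is above the 15.4% of all genes, and in WT the shares of calls are at or below those of all genes. A pair of further fits of the antisense counts was added after the data were seen. With the muscle markers held, 3 readings were called in KO and 2 in WT: those of mt-Tn and mt-Nd5 in both genotypes, and in KO that of mt-Nd6. In that fit the KO calls of mt-Nd2 (-1.04, adjusted p = 0.171), mt-Tw (-1.61, 0.203), mt-Ta (-0.43, 0.0897), mt-Tt (-1.09, 0.156) and mt-Tp (-1.62, 0.189) ended. The WT calls of mt-Ta (-0.34, 0.0850) and mt-Ti (2.39, 0.0550) ended too. Without the muscle term these changes were -0.90, -1.93, -0.43, -0.92, -1.67, -0.34 and 2.72. The mean log2 CPM of the muscle markers was -2.46 to -2.24 in KO_cold and 0.555 to 4.57 in KO_RT. These groups did not overlap, so in KO the fit could not part temperature from the markers well. Without WT_RT replicate 4 and WT_cold replicate 5, 5 readings were called in KO and 3 in WT, and the calls of mt-Nd2 (adjusted p = 0.0606) and mt-Tt (0.0590) in KO and of mt-Ta (0.124) in WT ended. The WT changes of mt-Tn and mt-Ti were then -0.38 (adjusted p = 0.0270) and 2.59 (adjusted p = 0.0234).

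The most abundant minus-strand reading beside mt-Nd6 is the antisense RNA over its neighbour mt-Nd5, and it fell alongside. It had 1197, 1383, 1924, 2076 and 2301 CPM in KO_cold, against 3527, 3580.1, 3972, 3959 and 4154 CPM in KO_RT. It had 2209, 1449, 1624, 2574 and 1583 CPM in WT_cold, against 3696, 3272, 3597, 3739 and 3308 CPM in WT_RT. Again neither pair overlapped (-1.11 ± 0.17, adjusted p = 8.75e-05 in KO, and -0.90 ± 0.17, adjusted p = 0.000715 in WT). With the muscle markers held it was -1.13 in KO and -0.91 in WT, and without WT_RT replicate 4 and WT_cold replicate 5 it was -0.79 in WT, each still called. A read of minus-strand RNA that crosses from mt-Nd6 into mt-Nd5 can be counted in both readings, so they are not independent. As a share of the stranded counts of mt-Nd5, antisense RNA averaged 4.95% ± 1.08 in KO_cold, 9.50% ± 0.928 in KO_RT, 5.85% ± 1.40 in WT_cold and 9.25% ± 0.750 in WT_RT (SD, n = 5 each), above the 0.188% to 0.492% of abundant nuclear genes.

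Over the other plus-strand protein genes, minus-strand RNA was scarcer. At mt-Nd2 it had 83.1, 68.4, 108, 121 and 183 CPM in KO_cold, against 174, 181, 219, 241 and 235 in KO_RT, with overlap of 1 library (-0.90 ± 0.32, adjusted p = 0.0402), a call made in 12 of 26 alternative analyses, and -0.36 ± 0.32, adjusted p = 0.453 in WT. In KO the changes were -0.65 ± 0.28, adjusted p = 0.0938 at mt-Nd4, -0.60 ± 0.23, adjusted p = 0.0613 at mt-Co1 and -0.55 ± 0.22, adjusted p = 0.0652 at mt-Cytb, none of which passed. In WT they were -0.36 ± 0.28, adjusted p = 0.383 at mt-Nd4, -0.19 ± 0.23, adjusted p = 0.609 at mt-Co1 and -0.09 ± 0.22, adjusted p = 0.805 at mt-Cytb. Antisense counts were 0.194% to 0.918% of the stranded counts at mt-Nd2, 0.317% to 1.29% at mt-Nd4, 0.132% to 0.396% at mt-Co1 and 0.375% to 0.956% at mt-Cytb. These ranges overlap the 0.188% to 0.492% of abundant nuclear genes. How many of these counts are reads of the wrong strand was not tested. Sorted by strand of the RNA, 20 readings of minus-strand RNA were tested, of which 0 rose and 9 fell in KO (median -0.63) and 1 rose and 3 fell in WT (median -0.18). Over all genes, 31.7% of sense and 15.4% of antisense readings fell in KO, and 30.2% and 14.2% in WT. The 20 comprise 7 sense and 13 antisense readings. Of the 7, 5 fell in KO and 2 in WT, and of the 13, 4 fell in KO and 1 in WT. Neither WT part lies above its share over all genes. Of 29 readings of plus-strand RNA, 3 rose and 3 fell in KO (median 0.00) and 4 rose and 5 fell in WT (median -0.13). The shares of all genes that rose were 27.5% of sense and 16.3% of antisense readings in KO, and 26.2% and 14.1% in WT.

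**Figure D3:**
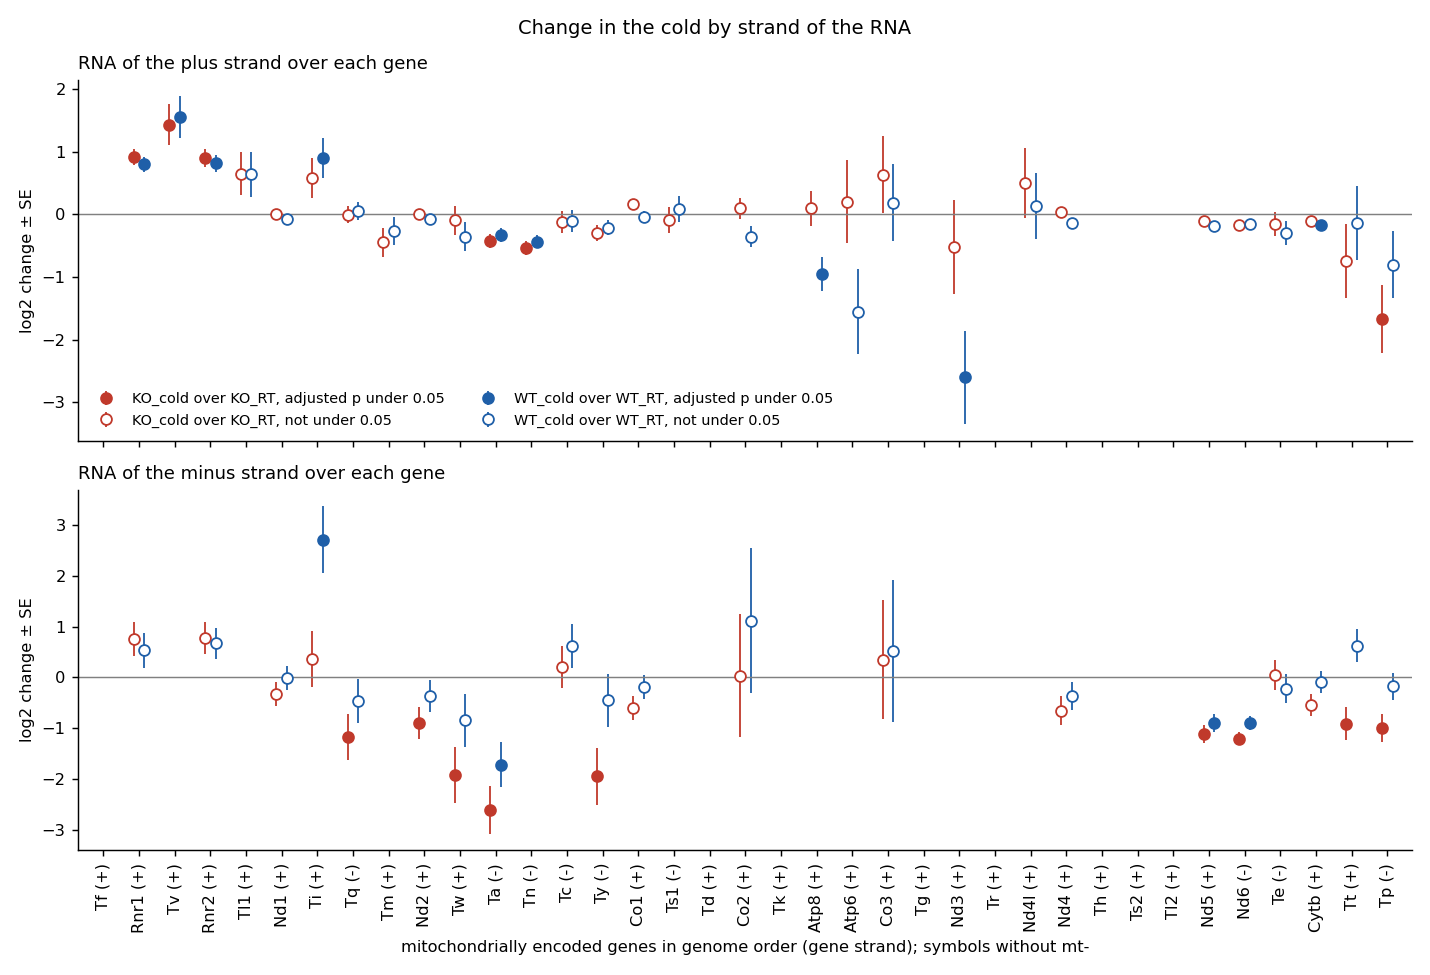
Log2 change ± SE in the cold for each tested reading in genome order, KO (red) and WT (blue), filled where adjusted p is under 0.05; the top panel holds RNA of the plus strand and the bottom panel RNA of the minus strand over each gene. Both rRNA genes lie near 0.8 to 0.9 in the top panel, and mt-Nd5, mt-Nd6 and mt-Ta lie below 0 in the bottom panel in both genotypes.

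Of the 12 tested tRNA genes, 1 rose and 4 fell in KO, and 2 rose and 1 fell in WT. These 5 of 12 and 3 of 12 stand against 59.2% and 56.4% of all genes, and are lower shares. The tRNA for valine, mt-Tv, lies between the rRNA genes with no gap on either side, and its sense level was 0.835, 0.823, 0.706, 0.464 and 0.652 CPM in KO_cold, against 0.122, 0.214, 0.171, 0.394 and 0.386 in KO_RT. It was 0.547, 0.531, 0.823, 0.551 and 0.358 CPM in WT_cold, against 0.171, 0.163, 0.114, 0.335 and 0.151 in WT_RT. Neither pair overlapped (1.43 ± 0.33, adjusted p = 0.000723 in KO, and 1.56 ± 0.33, adjusted p = 0.000411 in WT). The KO call was lost once the fit held the muscle markers (1.16, adjusted p = 0.0613). Without WT_RT replicate 4 and WT_cold replicate 5 the WT change of mt-Tv was 2.01 (adjusted p = 4.57e-05). The isoleucine tRNA mt-Ti changed by 0.90 ± 0.31, adjusted p = 0.0206 in WT and by 0.58 ± 0.31, adjusted p = 0.117 in KO. Its WT call ended without WT_cold replicate 5 (adjusted p = 0.0728) and without WT_RT replicate 5 (adjusted p = 0.0530). It also ended without both WT_RT replicate 4 and WT_cold replicate 5 (0.72, adjusted p = 0.0638) and with the muscle term (0.85, adjusted p = 0.0783).

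The alanine tRNA mt-Ta, printed above, had a sense level of 0.119, 0.235, 0.0743, 0.124 and 0.385 CPM in KO_cold, against 0.805, 0.749, 1.13, 2.15 and 1.10 in KO_RT. It was 0.219, 0.0569, 0.118, 0.489 and 0.381 CPM in WT_cold, against 0.488, 0.841, 1.20, 0.696 and 0.858 in WT_RT, where WT_cold replicate 4 and WT_RT replicate 1 touch. It fell by 2.62 in KO (SE 0.47, adjusted p = 5.68e-05) and by 1.72 in WT (SE 0.44, adjusted p = 0.00209), in WT with a change of -1.97 without WT_RT replicate 4 and WT_cold replicate 5 (adjusted p = 0.00251). In KO the minus-strand tRNAs for tyrosine, mt-Ty (-1.95 ± 0.57, adjusted p = 0.00565), for glutamine, mt-Tq (-1.17 ± 0.45, adjusted p = 0.0324), and for proline, mt-Tp (-1.003 ± 0.28, adjusted p = 0.00413), fell as well. In WT their changes were -0.45 ± 0.53, -0.46 ± 0.44 and -0.17 ± 0.27, with adjusted p of 0.486, 0.393 and 0.608. The interaction test did not separate the genotypes for any of them (mt-Ty -1.50 ± 0.78, adjusted p = 0.546). Once the fit held the muscle markers, the KO calls of mt-Ty (-1.89, adjusted p = 0.0677) and mt-Tq (-1.25, 0.144) ended. That of mt-Tq ended too without both WT libraries that stood apart (adjusted p = 0.0524) and was made in 22 of 31 alternative analyses; with both strands together its value was 0.51. The highest sense level of any of these 4 tRNA genes was 16.05 CPM, that of mt-Tq in KO_RT replicate 4, and 92.5% to 99.9% of the stranded counts over them were of plus-strand RNA. The sense share was 0.148% to 2.81% at mt-Ta, with 2 to 16 counts per cold library, and 0.134% to 1.59% at mt-Ty. Its low end reaches the antisense share of abundant nuclear genes (0.188% to 0.492%). How many of these counts are plus-strand reads on the wrong strand was not tested, which limits the size of the changes.

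The remaining tested tRNA genes were called in neither genotype. The tRNAs for leucine, mt-Tl1, and cysteine, mt-Tc, changed by 0.65 ± 0.35, adjusted p = 0.114 and 0.21 ± 0.42, adjusted p = 0.690 in KO, and by 0.64 ± 0.36, adjusted p = 0.138 and 0.62 ± 0.44, adjusted p = 0.239 in WT. That for glutamate, mt-Te, changed by 0.05 ± 0.29, adjusted p = 0.907 in KO and -0.22 ± 0.29, adjusted p = 0.538 in WT. For methionine, mt-Tm, the change was -0.45 ± 0.23, adjusted p = 0.0966 in KO and -0.27 ± 0.23, adjusted p = 0.331 in WT, and for mt-Tw it was -0.10 ± 0.23, adjusted p = 0.743 in KO and -0.36 ± 0.23, adjusted p = 0.201 in WT. The sense levels of these 5 genes ran up to 26.3 CPM in any library. At mt-Te sense counts were 0.154% to 0.341% of the stranded counts, near the antisense share of abundant nuclear genes (0.188% to 0.492%).

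The plus-strand RNA over minus-strand tRNA genes was far more abundant. Over mt-Ta it had 46.3, 36.2, 48.7, 45.4 and 45.1 CPM in KO_cold, against 70.6, 46.4, 56.0, 74.6 and 50.5 in KO_RT (-0.43 ± 0.11, adjusted p = 0.00464), and it changed by -0.34 ± 0.11, adjusted p = 0.0259 in WT, where the call was made in 18 of 26 alternative analyses and ended without WT_cold replicate 3 (adjusted p = 0.0987) or without WT_RT replicate 4 (adjusted p = 0.0667), for example. Over the asparagine tRNA mt-Tn it fell in both genotypes without overlap (-0.53 ± 0.11, adjusted p = 0.000325 in KO, and -0.43 ± 0.11, adjusted p = 0.00278 in WT). Over the serine tRNA mt-Ts1, printed above, it ran from 227 to 360.0 CPM in KO_cold, 234 to 354 in KO_RT, 253 to 395 in WT_cold and 243 to 546 in WT_RT, while the sense RNA of that gene was at most 0.367 CPM in any library. Its changes were -0.09 ± 0.21 in KO and 0.09 ± 0.20 in WT, neither of which passed. Unlike mt-Ta and mt-Tn, mt-Ts1 lies wholly inside the stretch copied in the nucleus. Its counts of either strand are of reads that could be told from the copy.

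Plus-strand RNA over the proline tRNA mt-Tp, printed above and the last gene of the annotation, was uneven in the cold. It had 40.03, 339, 86.1, 58.2 and 224 CPM in KO_cold, against 479, 463, 451, 478 and 498 in KO_RT. It had 518, 409, 82.4, 227 and 116 CPM in WT_cold, against 490.0, 427, 465, 490.4 and 484 in WT_RT. All KO_cold libraries lay below all KO_RT libraries, whereas in WT replicate 1 of the cold group lay above all RT libraries, replicate 2 just below them and the other three far below. The change was -1.67 ± 0.54, adjusted p = 0.0268 in KO and -0.80 ± 0.53, adjusted p = 0.299 in WT; the KO call ended without KO_cold replicate 1 (adjusted p = 0.0545), 3 (0.0698) or 4 (0.0670). The neighbouring threonine tRNA mt-Tt, on the plus strand, was uneven in sense counts, with 7.55, 88.0, 21.7, 7.73 and 51.8 CPM in KO_cold, 63.6, 38.8, 43.5, 77.6 and 71.4 in KO_RT, 80.0, 68.1, 22.1, 42.1 and 22.4 in WT_cold and 46.7, 35.6, 49.3, 94.1 and 32.7 in WT_RT, and was called in neither genotype (adjusted p = 0.300 in KO and 0.864 in WT).

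The remaining antisense calls were of scarce RNA. The antisense reading of the tryptophan tRNA mt-Tw was at most 0.444 CPM in KO_cold, against at most 1.24 CPM in KO_RT, with overlap (-1.93 ± 0.55, adjusted p = 0.00956), and that of mt-Tt fell in KO (-0.92 ± 0.33, adjusted p = 0.0403), a call made in 14 of 26 alternative analyses. In WT the antisense reading of mt-Ti rose (2.72 ± 0.67, adjusted p = 0.00507), with 0.700, 0.227, 0.852, 3.12 and 2.19 CPM in WT_cold, against 0.171, 0.163, 0.200, 0.258 and 0.252 in WT_RT. WT_cold replicate 2 overlapped WT_RT there, and mt-Ti shares 3 bases with mt-Tq, which lies on the minus strand.

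Among the 6 protein genes inside the copied stretch, 2 fell in the cold in WT and 0 in KO, where 30.2% and 31.7% of all genes fell. The WT share is close to that of all genes. mt-Atp8, a subunit of ATP synthase, had 0.700, 1.04, 0.881, 1.38 and 0.667 CPM in WT_cold, against 1.95, 1.73, 1.86, 1.39 and 2.04 in WT_RT; the highest WT_cold library lay just below the lowest WT_RT library (-0.95 ± 0.27, adjusted p = 0.00543). In KO its change was 0.10 ± 0.27, adjusted p = 0.784, and the difference between the genotypes was 1.04 ± 0.39, adjusted p = 0.310. It overlaps mt-Atp6 by 43 bases, and reads in that overlap were ambiguous. With both strands together its WT call ended (-0.44, adjusted p = 0.573). The fall of mt-Nd3 in WT (-2.60 ± 0.75, adjusted p = 0.00673) rested on its size on WT_RT replicate 4: without that library the change was -0.63 (adjusted p = 0.0436), and without WT_cold replicate 5 as well it was -0.69 (adjusted p = 0.0382). Without those 2 libraries the change of mt-Atp8 was -0.90 (adjusted p = 0.0147). The call of mt-Nd3 ended when only the WT groups were fitted (adjusted p = 0.0553). mt-Co2 of complex IV (0.10 ± 0.17, adjusted p = 0.649 in KO, and -0.35 ± 0.17, adjusted p = 0.0809 in WT) and mt-Nd4l of complex I (0.50 ± 0.56, adjusted p = 0.464 in KO, and 0.13 ± 0.53, adjusted p = 0.850 in WT) were not called. mt-Atp6 (0.21 ± 0.66, adjusted p = 0.810 in KO) and mt-Co3 (0.64 ± 0.61, adjusted p = 0.390 in KO) were called in neither genotype. Although not called, mt-Co2 and mt-Atp6 did not overlap between WT_cold and WT_RT. mt-Atp6 averaged 3.72 ± 1.30 CPM per kb in WT_cold and 10.9 ± 6.21 in WT_RT (SD, n = 5 each). Single libraries of mt-Atp6 and mt-Co3 stood high, such as 20.5 CPM of mt-Atp6 in KO_cold replicate 3 and 17.0 CPM in KO_RT replicate 2. For mt-Co3, WT_RT replicate 5 had 7.22 CPM.

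**Figure D4:**
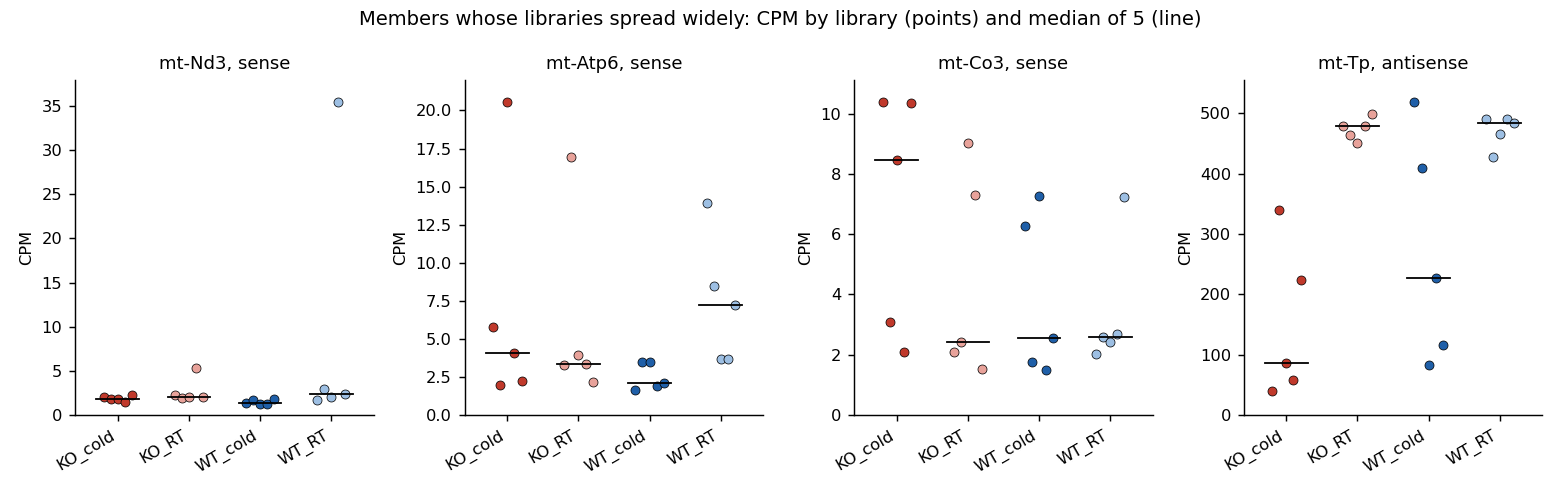
CPM by library (points) and median of 5 libraries (line) for 3 genes inside the stretch copied in the nucleus (mt-Nd3, mt-Atp6 and mt-Co3, sense) and for plus-strand RNA over mt-Tp (antisense). Single libraries stand far above the rest for mt-Nd3 (35.4 CPM in WT_RT replicate 4) and mt-Atp6 (20.5 CPM in KO_cold replicate 3), mt-Co3 is uneven in all groups, and the cold groups spread widely in the last.

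Between knockout and wild type, no reading of the 37 genes passed edgeR's threshold in the cold or at RT. In KO_cold against WT_cold, 0 of 27 sense readings passed edgeR's test, against 7.7% of all genes; 5 had an unadjusted p under 0.05, and DESeq2 called 1. That one was mt-Nd4 of complex I, with 19269, 19349, 23036, 20914 and 19885 CPM in KO_cold, against 18564, 18299, 18424, 17689 and 16453 in WT_cold, without overlap (0.20 ± 0.07, adjusted p = 0.0823 by edgeR, and adjusted p = 0.0297 by DESeq2). The 6 abundant plus-strand mRNAs all stood 0.14 to 0.20 higher in KO_cold than in WT_cold, and mt-Rnr1 and mt-Rnr2 differed by 0.06 ± 0.12 and 0.01 ± 0.14. Scaling to the mitochondrial sum moves every gene of this comparison by -0.13. mt-Nd6 differed by -0.14 ± 0.13, adjusted p = 0.633. Of the 22 antisense readings 0 passed, against 2.12% of all genes, with 0 at an unadjusted p under 0.05 and 0 by DESeq2.

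In KO_RT against WT_RT, 0 of 27 sense readings passed, against 2.7% of all genes, with 2 at an unadjusted p under 0.05 and 0 by DESeq2. mt-Nd6 differed by 0.17 ± 0.13, adjusted p = 0.647, mt-Rnr1 by -0.05 ± 0.12, adjusted p = 0.911 and mt-Rnr2 by -0.08 ± 0.14, adjusted p = 0.881. Of the 22 antisense readings 0 passed, against 0.586% of all genes, with 2 at an unadjusted p under 0.05, and DESeq2 called those of mt-Ti and mt-Tt. The antisense reading of mt-Tt had 2.66, 3.96, 4.20, 6.07 and 4.78 CPM in KO_RT, against 1.56, 1.77, 2.28, 1.75 and 1.46 in WT_RT, without overlap (1.29 ± 0.33, adjusted p = 0.135 by edgeR, and 0.00369 by DESeq2). That of mt-Ti had 0.268, 0.989, 1.19, 2.09 and 1.31 CPM in KO_RT, against 0.171, 0.163, 0.200, 0.258 and 0.252 in WT_RT, also without overlap (2.45 ± 0.68, adjusted p = 0.193).

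The difference between the cold responses of the genotypes passed for 0 of 27 sense readings, against 0.742% of all genes, and for 0 of 22 antisense readings, against 0.238%. By edgeR 2 sense and 2 antisense readings had an unadjusted p under 0.05, and DESeq2 called 0 of each. For mt-Rnr1 the KO response was larger by 0.11 ± 0.17, for mt-Rnr2 by 0.09 ± 0.20, and for mt-Nd6 the difference was -0.31 ± 0.19 (adjusted p = 0.894, 0.939 and 0.622). A p that misses the threshold does not show that the genotypes respond alike.

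Nuclear genes whose products copy, process, stabilise or regulate mitochondrial RNA and DNA moved both ways in the cold. Of 58 tested, 21 rose and 18 fell in KO (median 0.06) and 22 rose and 15 fell in WT (median 0.07). That is 39 of 58 called in KO and 37 of 58 in WT, against 59.2% and 56.4% of all genes. Transcription factors of the organelle were divided: the terminator family members Mterf3 (0.71 in KO and 0.68 in WT) rose and Mterf2 (-0.85 and -0.58) fell. Polrmt, the mitochondrial RNA polymerase, and Tfam, which packages the DNA and starts transcription, were chosen after their values were seen; Polrmt changed by -0.05 ± 0.08, adjusted p = 0.594 in KO and 0.07 ± 0.08, adjusted p = 0.433 in WT, and Tfam by -0.01 ± 0.06, adjusted p = 0.881 and 0.01 ± 0.06, adjusted p = 0.946.

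Genes of DNA replication and nucleotide supply fell in 8 of 13 in KO and 6 of 13 in WT, with 1 higher in each, where 31.7% and 30.2% of all genes fell. They included Polg2, the accessory subunit of the DNA polymerase (-1.57 ± 0.17, adjusted p = 5.68e-08 in KO, and -1.69 ± 0.16, adjusted p = 1.73e-08 in WT), Dguok, a deoxynucleoside kinase (-1.01 and -0.85), and Rrm2b, a ribonucleotide reductase subunit (-0.83 and -0.70). Genes of RNA stability and granules rose in 8 of 13 in KO and 9 of 13 in WT, with 2 lower in each, where 27.5% and 26.2% of all genes rose. They were led by Fastkd5, which is needed for the ends of some mitochondrial mRNAs that no tRNA marks (1.36 ± 0.12, adjusted p = 5.9e-09 in KO, and 1.37 ± 0.12, adjusted p = 5.25e-09 in WT). Of the RNA processing genes, Trmt10c, a subunit of the enzyme that cuts the front end of tRNAs, rose (0.77 and 0.94), as did Pde12, which removes A tails (0.83 and 0.88). Mrm2, an rRNA methyltransferase, fell (-0.53 and -0.71). The upstream coactivator Ppargc1a averaged 1473 CPM in KO_cold, 107 in KO_RT, 1025 in WT_cold and 108 in WT_RT, and its relative Pprc1 and the transcription factor subunit Gabpb1 rose with it (1.05 and 1.11 in KO, 0.88 and 0.66 in WT).

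In KO_cold against WT_cold, 0 of the 58 were higher and 4 lower, against 7.7% of all genes called in either direction, a share close to that of the 58. The 4 are Mtpap, the mitochondrial poly(A) polymerase (-0.35 ± 0.07, adjusted p = 0.00176), the coactivator Ppargc1b (-0.27 ± 0.08, adjusted p = 0.0394), Rexo2, which degrades short RNAs (-0.27 ± 0.06, adjusted p = 0.00997), and Mterf4, a ribosome assembly factor of the terminator family (-0.24 ± 0.07, adjusted p = 0.0349). At RT edgeR called 0 of the 58, with 6 at an unadjusted p under 0.05, and DESeq2 called 0. Of 36 nuclear subunits of complexes I, III, IV and V that work beside the mitochondrial ones, 1 rose and 3 fell in KO (median 0.00) and 8 rose and 1 fell in WT (median 0.08), all by less than 0.4 on the log2 scale. That is 4 of 36 in KO and 9 of 36 in WT, against 59.2% and 56.4% of all genes, so that fewer were called than of genes at large. They included Atp5h of ATP synthase (0.18 and 0.19), Cox7a2 of complex IV (0.20 in WT) and the falls of Atp5g3 (-0.35 and -0.16) and Ndufs3 of complex I (-0.26 in KO).

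**Figure D5:**
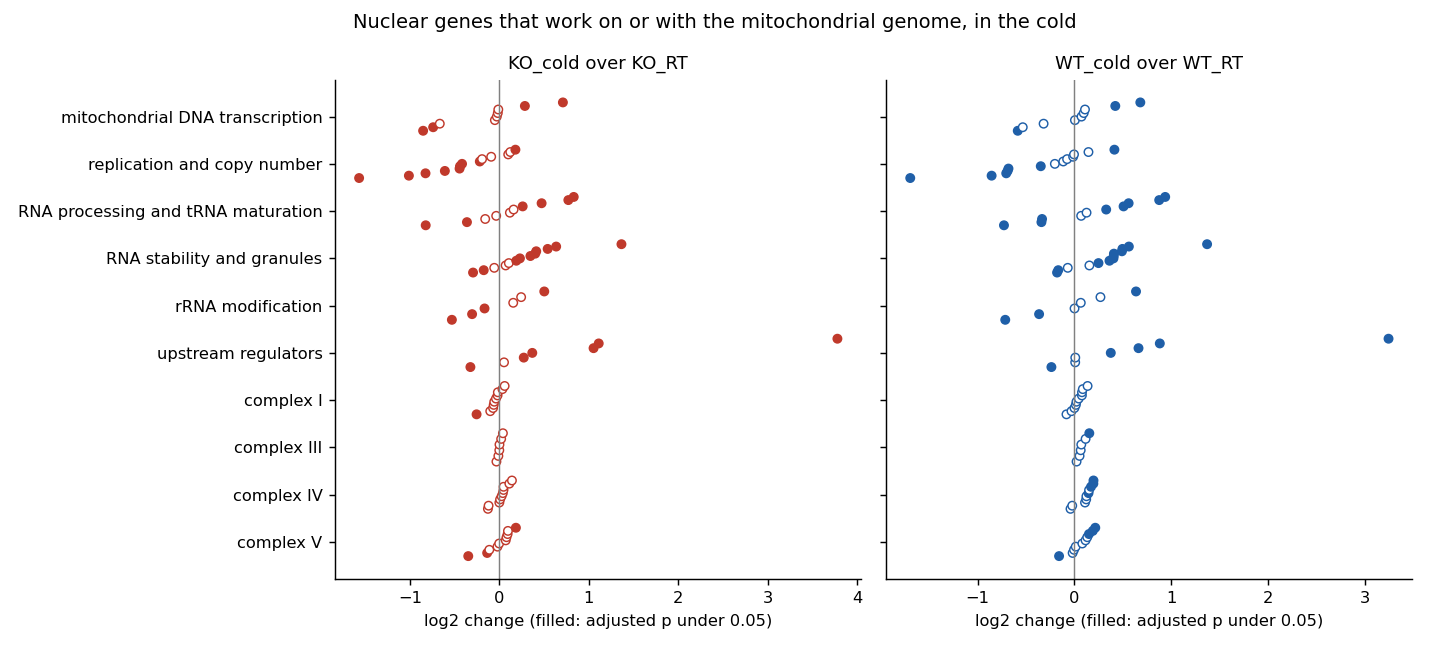
Log2 change in the cold of nuclear genes by list, KO_cold over KO_RT at the left and WT_cold over WT_RT at the right, 1 point per gene, filled where adjusted p is under 0.05. Replication genes lie mostly below 0 and RNA stability genes mostly above 0 in both genotypes, and respiratory chain subunits lie within 0.4 of 0.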

How the data were processed

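The labels describe stranded mRNA libraries of mouse brown adipose tissue (KAPA kit), 5 per group. The deposited files are STAR tables of raw read counts per gene and strand setting, which the authors made from trimmed reads; the submitters' processing notes name STAR 2.7.8a, Trim Galore 0.6.0 and the builds GRCm38.p6 and mm10. The annotation release and the read length are not given in the sources used here. The reverse setting holds sense counts and the forward setting antisense counts. The 4 entries per table that name no gene stayed out of the fits (no feature: 3.14% to 4.55% of all reads; multi-mapping 18.3% to 21.4%). Gene names and positions came from GENCODE M21 on GRCm38, which named 55144 of 55471 IDs.

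Counts were fitted over all genes in 4 groups with edgeR 4.0.16 (R 4.3.3; TMM, filterByExpr with a minimum count of 10 and total of 15, robust quasi-likelihood test) and called at a Benjamini-Hochberg adjusted p under 0.05. Sense and antisense counts were fitted apart, both scaled to sense library sizes and sense TMM factors. DESeq2 1.42.0, other scalings, no filter, both strands together, a muscle term, a replicate block and left-out libraries were alternatives; for antisense counts the muscle term and leaving out both WT_RT replicate 4 and WT_cold replicate 5 were added after the data were seen. Script steps were tested on simulated data. Genes named were all 37, Cebpb, and of the nuclear lists the called genes of largest change (up to 6 in each direction per comparison for mitochondrial DNA expression, up to 4 for respiratory chain subunits, mean of at least 1 CPM). The members and lists were chosen with earlier results of these data known. The floor covers counting error only; SDs and SEs come from the spread among libraries.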

Additional observations from a re-analysis of the deposited data

Results flagged for a closer look

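In each group of 5 libraries, the highest and lowest values of each of the readings were compared with the rest by the size of the gap to the nearest library over the group's whole range. Of 196 groups looked at, 21 held a library that stood apart in this way, where chance gives about 1 in 20, or 9.8. WT_RT replicate 4 was the library in 5 of these and WT_cold replicate 4 in 3.

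In sense counts, the library was the highest of WT_RT for mt-Tv (0.335 CPM, replicate 4), mt-Rnr2 (48485 CPM, replicate 4), mt-Nd3 (35.4 CPM, replicate 4), mt-Tt (94.1 CPM, replicate 4), mt-Co2 (4.46 CPM, replicate 2) and mt-Co3 (7.22 CPM, replicate 5). It was the highest of KO_RT for mt-Ta (2.15 CPM, replicate 4), mt-Atp6 (16.95 CPM, replicate 2) and mt-Nd3 (5.28 CPM, replicate 4), and the lowest of KO_RT for mt-Co1 (71043 CPM, replicate 2). In the cold groups it was the highest of KO_cold for mt-Atp6 (20.5 CPM, replicate 3), the highest of WT_cold for mt-Nd4l (3.11 CPM, replicate 3) and the lowest of WT_cold for mt-Co2 (1.93 CPM, replicate 4).

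In antisense counts, it was the highest for mt-Rnr1 in WT_cold (58.0 CPM, replicate 4), for mt-Ts1 in WT_RT (546 CPM, replicate 1), for mt-Co3 in WT_RT (0.404 CPM, replicate 5), and for mt-Co2 in KO_cold (1.30 CPM, replicate 5), in WT_cold (0.853 CPM, replicate 1) and in WT_RT (0.335 CPM, replicate 4). It was the lowest for mt-Ta in KO_cold (36.2 CPM, replicate 2) and for mt-Ts1 in WT_cold (253 CPM, replicate 4). The antisense reading of mt-Co2 was 0 to 1.30 CPM in all libraries. No difference between the cold responses of the genotypes passed its test for any of these readings.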

How the results depend on the processing

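In the cold, mt-Rnr1 and mt-Rnr2 were called higher in both genotypes in 31 of 31 alternatives, and antisense mt-Nd5 lower in 26 of 26. mt-Nd6 was called lower in 31 of 31 in KO and 30 of 31 in WT; the exception was both strands together, as given above. Counting both strands together changed the split of sense calls to 6 higher and 2 lower in KO and 5 higher and 2 lower in WT; at minus-strand genes such counts include plus-strand RNA. mt-Tq turned to 0.51 in KO (adjusted p = 0.323), and mt-Tm to 1.22 in KO and 1.33 in WT. mt-Nd4l in WT ranged from -0.90 (without WT_cold replicate 3) to 0.40 with 1 library left out. Without TMM 15 sense readings were called in the cold in WT. Sense calls with 1 library left out numbered 7 to 9 for the cold in KO, 8 to 10 for the cold in WT, 0 to 1 for the knockout in the cold (mt-Atp8, without KO_RT replicate 2 or WT_cold replicate 4), and 0 for the knockout at RT and the interaction. DESeq2, which gave no value for 1 sense reading, called 1 in the knockout in the cold.

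Antisense calls in the cold in KO were 12 when scaled to antisense counts, 11 by DESeq2, 3 with the muscle term and 4 to 9 with 1 library left out (4 without KO_cold replicate 3). Those in the cold in WT were 2 with the muscle term and 3 to 4 with 1 library left out. For the knockout at RT they were 1 when scaled to antisense counts, 1 without a filter, 2 by DESeq2 and 0 to 1 with 1 library left out (mt-Tt without WT_cold replicate 2 or 4). For the interaction they were 0 to 1 (mt-Tt without WT_cold replicate 2). For other changes the cause was not tested. The share of all genes called was not taken in these alternatives, sense or antisense, so these counts of calls have no comparison.

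The labels do not say whether the replicate numbers pair the libraries. Same-numbered libraries had a mean correlation of 0.0291, with 7 of 30 pairs over 0.1. Libraries of different number had a mean of -0.00732, with 20 of 120 pairs over 0.1. Of 20 libraries, 7 correlated best with their own number. These values do not settle whether the libraries are paired. With the replicate block, sense calls were 8 for the cold in KO, 9 for the cold in WT and 0 for the rest, and antisense calls 9, 4, 0, 2 (knockout at RT) and 0. Depth limits the scarce tRNA and antisense readings, many of which rest on few counts.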

Other observations

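Nuclear copies of the mitochondrial genes also had single libraries with far higher sense counts than the rest. Gm13340, a copy of mt-Co1 on chromosome 2 (97.6% identity over 1545 bases), had 20135 counts in WT_RT replicate 2 and 16825 in KO_cold replicate 1, while the third highest library had 1438 and the median was 850.5. Gm28439, the copy of mt-Nd4 on chromosome 1, had 1631 counts in WT_cold replicate 2, against a median of 152.5, and Gm28437, the copy of mt-Co3, had 1502 in WT_RT replicate 4 and 1234 in KO_cold replicate 1, against a median of 430.5. These libraries are not the ones in which mt-Nd3 was high, apart from WT_RT replicate 4.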
